A study of Mus musculus with 6 samples.

Results

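The proteasome is the barrel-shaped protease that breaks down proteins tagged with ubiquitin. Its core particle is built from stacked rings of alpha subunits, which form the gate, and of beta subunits, some of which carry the proteolytic sites. Its cap, the regulatory particle, holds a ring of ATPases that unfolds the substrate and a set of non-ATPase subunits that bind and remove ubiquitin. Haematopoietic stem cells (HSCs) are known to make protein slowly and to be sensitive to disturbed protein turnover. The mRNA levels of these subunit genes were compared between HSCs that lack the ribosomal protein Rpl22 and HSCs that have it.

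Members were the genes whose symbol is Psma, Psmb, Psmc or Psmd followed by a number, without the immunoproteasome genes Psmb8, Psmb9 and Psmb10, and 36 of the 34573 genes in the count table met this rule. Of them, 16 encode core subunits (Psma and Psmb) and 20 encode cap subunits or factors that assemble the cap (Psmc and Psmd). The cells were Lineage-negative CD48-CD150+ HSCs sorted from the bone marrow of young adult mice, in 3 samples with the genotype Rpl22-/- (labelled Rpl22 KO) and 3 with the genotype Rpl22+/+ (labelled Rpl22 WT). The deletion is carried in the germline, so every cell of an Rpl22-/- mouse lacks the gene, and the labels name no other treatment. The labels do not say whether each sample came from its own mouse or from a pool, so each p-value measures the spread between these samples.

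Each library had between 9321123 and 13385850 reads on genes, and Rpl22+/+ replicate 3 had the fewest. Rpl22 itself had 449 to 546 reads in the Rpl22-/- libraries and 5031 to 7001 reads in the Rpl22+/+ libraries. The HSC marker list summed to 2448.4 to 2605.1 CPM in Rpl22-/- and 2618.7 to 2657.6 CPM in Rpl22+/+ libraries. CPM are the counts divided by the library's total over the genes kept for testing, with edgeR's TMM factors, and set to a common scale. Of the 10 HSC markers, Fgd5 alone passed the test, and it was lower in Rpl22-/- HSCs. The B cell genes Cd79a, Pax5, Ebf1 and Ms4a1 and the T cell genes Cd3d, Cd3e, Cd3g and Cd8a were under 1 CPM in all 6 libraries. Other genes of these lists were present, such as Cd79b at 20.7 to 27.6 CPM and Lck at 7.28 to 11.6 CPM. The lists summed to 27.1 to 29.6 CPM for B cells and 17.5 to 25.9 CPM for T cells in Rpl22-/- libraries, and to 23.2 to 25.2 CPM and 19.6 to 24.9 CPM in Rpl22+/+ libraries. Markers of megakaryocytes were higher in Rpl22-/- libraries, with 5 of 7 passing the test and sums of 1003.9 to 1265.6 CPM against 723 to 943 CPM. The 9 neutrophil markers summed to 108, 225 and 100 CPM in Rpl22-/- replicates 1, 2 and 3. In Rpl22+/+ replicates 1, 2 and 3 they summed to 84.3, 66.9 and 106 CPM. Of the 9, 2 passed the test, Ctsg and Camp, both higher in Rpl22-/- HSCs, while 5.57% of all genes tested passed. The part of other cells in the proteasome values was not tested. In bulk RNA, a change in the cells' makeup and a change in RNA per cell cannot be told apart.

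Transcription of proteasome genes is known to be driven by Nfe2l1 through antioxidant response elements, and ETS factors and the CCAAT-binding factor NF-Y are general activators of promoters like these. The 250 bases before the RefSeq start (GRCm38.p6) were therefore searched on both strands for TGACNNNGC, CCAAT and CCGGAAG in the 29 members that had a promoter entry. Stretches of 4 of them are shown because Psmb5 and Psmd8 are 2 of the genes that passed the test, Psmd6 is the member with the most negative change, and Psmc1 is the ATPase gene with the largest. Each is written 5′ to 3′ on the gene's strand, with motif matches in capitals. For Psmb5 and Psmd8, only bases outside the GENCODE gene are printed. For Psmd6 and Psmc1, only 30 bases around the CCGGAAG match are printed. These lie partly (Psmd6) or wholly (Psmc1) inside the GENCODE gene.
Psmb5 (chr14:54618023-54618245, reverse strand): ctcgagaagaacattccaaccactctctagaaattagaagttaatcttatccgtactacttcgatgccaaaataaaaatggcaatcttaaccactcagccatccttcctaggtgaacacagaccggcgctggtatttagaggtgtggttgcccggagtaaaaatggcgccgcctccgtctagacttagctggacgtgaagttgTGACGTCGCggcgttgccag
Psmd8 (chr7:29180702-29180923, reverse strand): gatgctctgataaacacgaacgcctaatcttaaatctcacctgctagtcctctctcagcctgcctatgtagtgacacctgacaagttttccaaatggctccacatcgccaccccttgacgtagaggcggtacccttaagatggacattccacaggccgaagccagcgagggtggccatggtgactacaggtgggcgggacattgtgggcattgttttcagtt
Psmd6 (chr14:14120972-14121001, reverse strand): cagagacgcgaCCGGAAGtcagactggcgg
Psmc1 (chr12:100110163-100110192, forward strand): tggtggatgcaCTTCCGGcggtggcgattt

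The members Psma8, Psmb1, Psmb2, Psmb7, Psmc3, Psmd3 and Psmd7 were not searched. The match in Psmb5 is an antioxidant response element whose first base lies 47 bases before the start. Psmd6 carries the ETS motif 45 bases before its start, and Psmc1 carries it on the other strand 28 bases before its start. Psmc1 also has a CCAAT match 175 bases before its start, outside the printed stretch. The window of Psmd8 held none of the 3 motifs. Among the 29 members, TGACNNNGC was found in 5 (17.2%), namely Psmb5, Psmb6, Psmc6, Psmd9 and Psmd12, against 10.2% of all 32851 promoter windows and 11.9% of the 11952 windows of tested genes. CCAAT was found in 12 (41.4%), against 33.8% and 35.2%. CCGGAAG was found in 9 (31%), against 6.91% and 13.1%. Of those 9, 8 were cap genes among 17 with a window (Psmc1, Psmc2, Psmc6, Psmd2, Psmd4, Psmd6, Psmd11 and Psmd12), and Psma6 was the only one of 12 core genes. Members were counted by gene, with 31 windows for the 29 genes, while the background shares were counted by window. The 29 include Psmb11, which has a CCAAT match and had too few reads to be tested. No motif matches overlapped each other in the members. The 8 cap genes with the ETS motif include both Psmc1, with a positive change, and Psmd6, with the most negative one, and a match is a description of the letters alone.

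Of the 36 members, 35 had enough reads to be tested, and 3 passed the threshold of 0.05 on the p-value of edgeR's quasi-likelihood fit, adjusted by the Benjamini-Hochberg method across 14004 genes. The 3 were Psmb2, Psmb5 and Psmd8, and all were higher in Rpl22-/- HSCs. They make up 8.57% of the tested members, while 5.57% of all genes tested passed in either direction and 3.28% passed as higher. Over all genes, 459 of 780 calls were higher, against 369 of 850 when scaling by library size alone, under which the 3 calls among the members were Psmb2, Psmd6 and Psmd8, with Psmd6 lower at log2 −0.34. The log2 fold change of Rpl22-/- over Rpl22+/+ was above 0 in 25 tested members (71.4%) and below 0 in 10. Over all genes tested, 48.7% were above 0. The members' median was 0.10, against −0.01 over all genes tested. In all, 9 members stood at an unadjusted p below 0.05, or 25.7%, beside 22.3% of all genes. In 9 members all 3 Rpl22-/- libraries lay above all 3 Rpl22+/+ libraries, and in 1 all lay below, together 28.6%, beside 26.9% of all genes. Exon bases are shared with another gene in 9 members. In 11, a transcript of another gene is at least 95% identical over 200 bases or more. For Psmb7, Psmd1 and Psmd13 that gene (Nek6, Gm21972 and Sirt3) is one that shares their exon bases, not a separate copy. The counts of all these members are less certain. Neither the sharing nor such a match was found for Psmb2 or Psmd8. The shares by unadjusted p and by lack of overlap were thus near the background. The one member that could not be tested, Psmb11, encodes a beta subunit made in the thymus cortex, and it had 0 reads in every library, where 3 reads stand for 0.224 to 0.322 CPM.

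**Figure D1:**
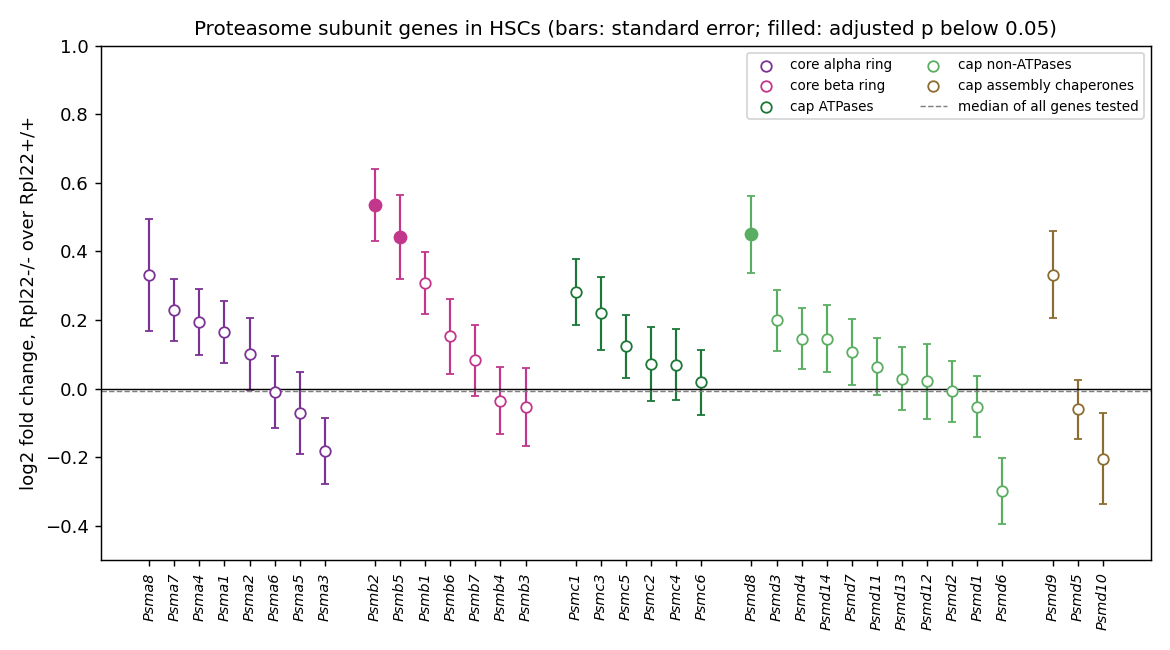
Log2 fold change of Rpl22-/- over Rpl22+/+ HSCs for the 35 tested proteasome genes, grouped by role, with bars for the standard error, filled points for an adjusted p below 0.05 and a dashed line at the median of all genes tested. Psmb2, Psmb5 and Psmd8 are the filled points, all above 0, Psmd6 is the lowest point at −0.30, and most of the others lie slightly above the dashed line.

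In the beta ring, 5 of 7 tested genes had a log2 fold change above 0, beside 48.7% of all genes tested, and the median was 0.15. Of the 7, Psmb2 and Psmb5 passed (28.6%), beside 5.57% of all genes tested, or 3.28% as higher. Psmb2 encodes a beta subunit without a proteolytic site of its own and lies on the forward strand of chromosome 4, chr4:126677630-126709714. It had 111, 147 and 128 CPM in Rpl22-/- replicates 1, 2 and 3 and 96.3, 87.9 and 82.3 CPM in Rpl22+/+ replicates 1, 2 and 3. Every Rpl22-/- library was above every Rpl22+/+ library, and replicate 2 was the highest. The means were 129 ± 18.1 CPM (SD, n = 3) and 88.8 ± 7.02 CPM (SD, n = 3), a rise of 1.45-fold (log2 0.54, standard error 0.104, adjusted p = 0.0107). Psmb2 still passed in 15 of 17 other ways of processing the counts, and missed the threshold without Rpl22-/- replicate 3 (adjusted p = 0.0566) and without Rpl22+/+ replicate 3 (adjusted p = 0.0526).

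Psmb5 encodes the chymotrypsin-like catalytic subunit, the target of bortezomib, and lies on the reverse strand at chr14:54614119-54618022. It had 42.2, 58.6 and 46.4 CPM in Rpl22-/- replicates 1, 2 and 3 and 38.3, 36.2 and 33.6 CPM in Rpl22+/+ replicates 1, 2 and 3. The genotypes did not overlap, and Rpl22-/- replicate 2 stood well above the rest. The rise was 1.36-fold (log2 0.44, standard error 0.122, adjusted p = 0.0459), and it passed in 7 of the 17 alternatives. It missed the threshold without any one library except Rpl22-/- replicate 1 (adjusted p = 0.103 to 0.172, the highest without Rpl22-/- replicate 2), and also when scaling by library size alone (adjusted p = 0.059), in limma-voom (0.0589), or when the trend on gene length (0.124) or GC content (0.111) was removed. With a replicate term and both trends removed it stood at log2 0.26 (adjusted p = 0.221). A processed pseudogene, Gm3375, is 98.9% identical to Psmb5 over 88.5% of its transcript, so reads of the pair may be split or lost.

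The other beta genes did not pass. Psmb1, a beta subunit without a proteolytic site, had 169, 188 and 165 CPM in Rpl22-/- replicates 1, 2 and 3 and 146, 149 and 126 CPM in Rpl22+/+ replicates 1, 2 and 3. These groups did not overlap either, at a log2 fold change of 0.31 and an adjusted p of 0.0594, and Psmb1 passed in 5 of the 17 alternatives. Psmb3 had the lowest value of the ring, with 64.5, 67.9 and 49.4 CPM against 59.3, 67.7 and 61.6 CPM and a log2 fold change of −0.05. Its genotypes overlapped throughout. The catalytic genes Psmb6 and Psmb7 stood at 0.15 (adjusted p = 0.445) and 0.08 (adjusted p = 0.693).

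In the alpha ring none of 8 genes passed, and the median log2 fold change was 0.13. An unadjusted p below 0.05 was found in 1 (12.5%), beside 22.3% of all genes tested. Psma7 had 160, 192 and 159 CPM in Rpl22-/- replicates 1, 2 and 3 and 150, 145 and 140 CPM in Rpl22+/+ replicates 1, 2 and 3 (log2 0.23, adjusted p = 0.148). Psma4 had 179, 217 and 185 CPM against 178, 178 and 152 CPM (log2 0.19, adjusted p = 0.252). In both genes the Rpl22-/- libraries lay above the Rpl22+/+ libraries, for Psma4 by a narrow margin. Psma8, the germ cell counterpart of Psma7, was low, at 19.7, 14.6 and 21.6 CPM against 14.4, 16.9 and 13.2 CPM (log2 0.33, adjusted p = 0.245). Here Rpl22-/- replicate 2 was the lowest of its genotype. Psma3 had the most negative value of the ring, at 150, 149 and 124 CPM against 164, 171 and 145 CPM (log2 −0.18, adjusted p = 0.283), with overlap between 145 and 150 CPM.

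**Figure D2:**
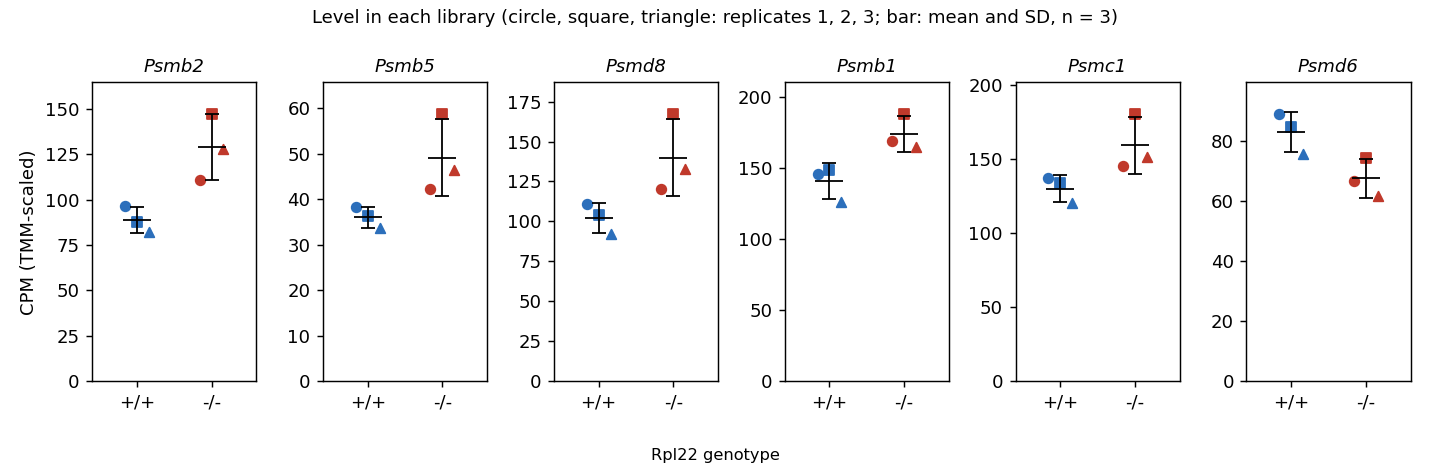
Level in CPM of selected proteasome genes in each library, by Rpl22 genotype, with circle, square and triangle for replicates 1, 2 and 3 and a bar for the mean and SD (n = 3). In Psmb2, Psmb5 and Psmd8 the Rpl22-/- libraries lie above the Rpl22+/+ libraries with replicate 2 (square) on top, and in Psmd6 they lie below.

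In the cap, 15 of 20 genes had a log2 fold change above 0, beside 48.7% of all genes tested, and 1, Psmd8, passed. That is 5.0%, beside 5.57% of all genes tested. Psmd8 encodes a lid subunit that joins late in the assembly of the lid, and lies on the reverse strand at chr7:29174188-29180701. It had 120, 167 and 133 CPM in Rpl22-/- replicates 1, 2 and 3 and 111, 104 and 92.1 CPM in Rpl22+/+ replicates 1, 2 and 3. The lowest Rpl22-/- library was only slightly above the highest Rpl22+/+ library, and replicate 2 was again the highest. The means were 140 ± 24.2 CPM (SD, n = 3) and 102 ± 9.38 CPM (SD, n = 3), a rise of 1.37-fold (log2 0.45, standard error 0.113, adjusted p = 0.0315). Psmd8 passed in 10 of the 17 alternatives. It missed the threshold with the GC trend removed (adjusted p = 0.059), with a replicate term and the length and GC trends removed (0.0515), and without Rpl22-/- replicate 2 (0.103) or 3 (0.094) or Rpl22+/+ replicate 1 (0.0697), 2 (0.0929) or 3 (0.133). Without Rpl22-/- replicate 2 its log2 fold change was 0.30.

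Psmd6, another lid subunit, was the only member whose Rpl22-/- libraries all lay below the Rpl22+/+ libraries. It lies on the reverse strand at chr14:14112174-14120984 and had 66.9, 74.6 and 61.7 CPM in Rpl22-/- replicates 1, 2 and 3 and 89.0, 84.8 and 75.7 CPM in Rpl22+/+ replicates 1, 2 and 3. It stood at log2 −0.30 (standard error 0.0963, adjusted p = 0.0789) and passed in 4 of the 17 alternatives. Psmd3, a structural lid subunit, had 114, 139 and 121 CPM against 109, 107 and 109 CPM (log2 0.20, adjusted p = 0.199). Its Rpl22+/+ libraries were tightly grouped, and all Rpl22-/- libraries were above them. Of the 11 non-ATPase genes, 8 were above 0 and 3 below, with a median of 0.06. Psmd1 and Psmd2, the scaffolds of the cap base, stood at −0.05 and −0.01. Psmd4, a ubiquitin receptor, and Psmd14, the deubiquitinase of the lid, both stood at 0.15 and did not pass.

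All 6 ATPase genes had a log2 fold change above 0, from 0.02 to 0.28, beside 48.7% of all genes tested, and none passed. Psmc1 had the largest, with 145, 180 and 151 CPM in Rpl22-/- replicates 1, 2 and 3 and 137, 134 and 120 CPM in Rpl22+/+ replicates 1, 2 and 3 (log2 0.28, adjusted p = 0.0934). Its genotypes did not overlap. Psmc3 had 131, 175 and 136 CPM against 131, 132 and 116 CPM (log2 0.22, adjusted p = 0.242), so that replicate 2 alone stood apart. Psmc6 had the smallest, at 116, 122 and 106 CPM against 125, 114 and 99.9 CPM (log2 0.02), and its direction turned, to −0.025 with library size alone, −0.028 without Rpl22-/- replicate 2 and −0.062 without Rpl22+/+ replicate 3.

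The members Psmd5, Psmd9 and Psmd10 encode chaperones that help the cap base assemble and are not part of the finished proteasome. None passed, and they stood on both sides of 0. Psmd9 had 25.8, 32.7 and 32.7 CPM in Rpl22-/- replicates 1, 2 and 3 and 24.3, 25.4 and 22.7 CPM in Rpl22+/+ replicates 1, 2 and 3 (log2 0.33, adjusted p = 0.135). The groups were apart by a small gap, and 25.5% of its exon bases are shared with the antisense gene Gm26745, whose reads cannot be told apart without strand. Psmd10, also known as gankyrin and the only tested member on chromosome X, had 19.9, 21.3 and 19.9 CPM against 23.2, 20.5 and 26.9 CPM (log2 −0.21, adjusted p = 0.39). Psmd5 stood at −0.06.

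The core genes had a median log2 fold change of 0.15 (15 tested, 10 above 0) and the cap genes 0.07 (20 tested, 15 above 0). The difference between the medians was 0.08. A related value, core minus cap within a single library, had a standard deviation of 0.07 between libraries of the same genotype (pooled over both genotypes). Within each library, the median core deviation from the gene's mean over the 6 libraries minus the median cap deviation was 0.11, 0.04 and −0.10 in Rpl22-/- replicates 1, 2 and 3. In Rpl22+/+ replicates 1, 2 and 3 it was −0.04, −0.01 and −0.03. The Rpl22-/- libraries thus lay on both sides of the Rpl22+/+ libraries, and core and cap were not seen to part by genotype. Without Psma8 and Psmb11, which belong to testis and thymus, the core median was 0.13, and without the assembly chaperones the cap median was 0.07. The members' exons were shorter than those of all genes tested, with a median of 2808 against 4233 bases, and had a similar GC content, 49.2% against 49.7%. With the trend on length removed the medians were 0.09 for the core and 0.04 for the cap, and with the trend on GC removed they were 0.21 and 0.10.

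One library of each genotype stood apart in the members. Rpl22-/- replicate 2 was the highest of the 3 Rpl22-/- libraries in 32 of 35 members (91.4%), among them all 20 cap genes, while it was the highest of the 3 in 34.8% of all genes tested. It was the highest of all 6 libraries in 28 members (80.0%), against 22.9% of all genes. Rpl22+/+ replicate 3 was the lowest of all 6 in 23 members (65.7%), against 18.8% of all genes. The median deviation in Rpl22-/- replicates 1, 2 and 3 was 0.06, 0.23 and −0.11 for core genes and −0.04, 0.19 and −0.01 for cap genes. In Rpl22+/+ replicates 1, 2 and 3 it was −0.02, −0.001 and −0.18 for core genes and 0.02, 0.01 and −0.15 for cap genes. Rpl22-/- replicate 2 was thus high and Rpl22+/+ replicate 3 low on both sides of the particle, and the other 4 libraries lay between them.

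**Figure D3:**
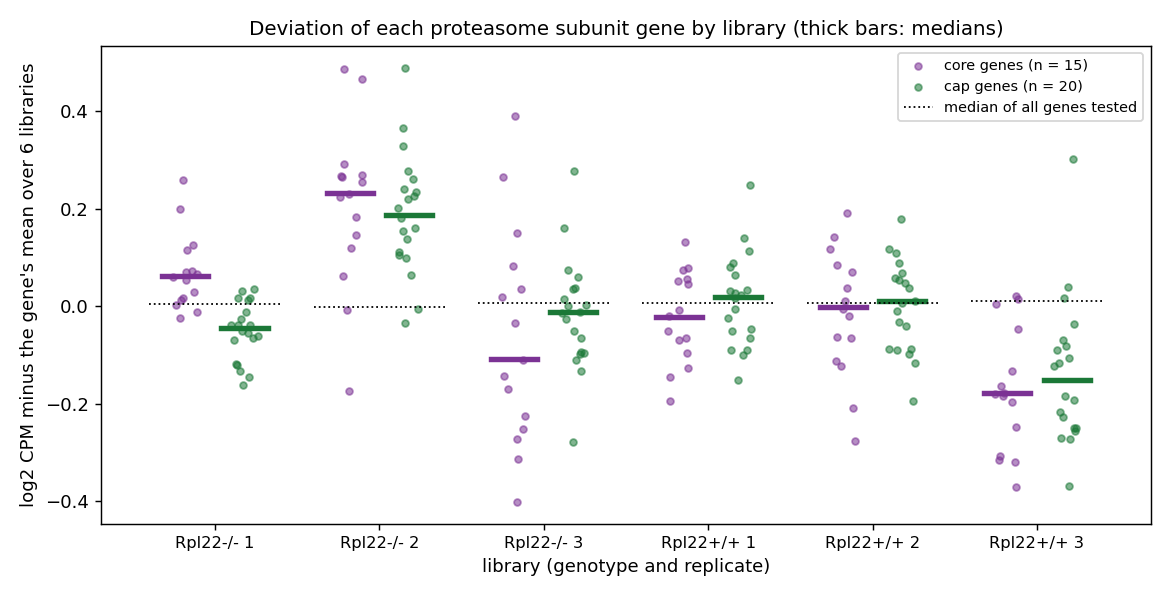
Log2 CPM of each tested core gene (n = 15) and cap gene (n = 20) minus that gene's mean over the 6 libraries, by library, with a line at each group's median and a dotted line at the median of all genes tested. Rpl22-/- replicate 2 lies highest and Rpl22+/+ replicate 3 lowest in both groups.

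The members' CPM summed to 3652.5, 4231.3 and 3543.2 in Rpl22-/- replicates 1, 2 and 3 and to 3655.2, 3647.8 and 3263.7 in Rpl22+/+ replicates 1, 2 and 3. The sums overlapped between the genotypes, with means of 3809 ± 370 CPM and 3522.2 ± 224 CPM (SD, n = 3). Without Rpl22-/- replicate 2, 19 of 35 members had the higher mean in Rpl22-/- HSCs in place of 25, the core median was 0.05 and the cap median 0.01. Without Rpl22+/+ replicate 3 the count was 21 and the medians were 0.10 and 0.02, and without Rpl22-/- replicate 3 the count was 30 and the medians 0.21 and 0.11. The number of members passing the test was 6 without Rpl22-/- replicate 1, 1 without Rpl22-/- replicate 2, Rpl22+/+ replicate 1 or Rpl22+/+ replicate 2, and 0 without Rpl22-/- replicate 3 or Rpl22+/+ replicate 3. Rpl22-/- replicate 2 also had the highest sum of neutrophil markers, at 225 CPM, in which Mpo, a granule enzyme, took the largest share. Mpo had 13.9, 101 and 17.1 CPM in Rpl22-/- replicates 1, 2 and 3 and 1.46, 5.78 and 20.5 CPM in Rpl22+/+ replicates 1, 2 and 3. Of the 9 markers, Mpo, Elane and Ctsg were highest in Rpl22-/- replicate 2, and the other 6 were highest in other libraries. In Rpl22+/+ replicate 3, the library lowest in most members, Mpo was above Rpl22-/- replicates 1 and 3. The part of such cells in the proteasome levels of that library was not tested.

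Per kb of the longest principal transcript, levels can be set side by side between genes, but only roughly, since a shorter transcript may be the one expressed. That transcript has 2911 bases in Psma2 and 2846 in Psma3, against 914 in Psma7, which lowers the first 2 values. In Rpl22+/+ HSCs the median was 82.1 CPM per kb over 15 core genes and 54.8 over 20 cap genes, and in Rpl22-/- HSCs 93.4 and 56.2. Psma7 was the most abundant, at 159 CPM per kb in Rpl22+/+ and 186 in Rpl22-/- HSCs, followed by Psma4 at 145 and 166. Psma8, which can take the place of Psma7 in germ cells, stood at 8.75 and 11, the lowest of the tested members. The assembly chaperones were also low, with Psmd9 at 9.28 and 11.7, Psmd10 at 16.5 and 14.2, and Psmd5 at 18.2 and 17.5 CPM per kb. Among the genes of the finished particle outside Psma8, levels ran from 32.7 to 159 CPM per kb in Rpl22+/+ HSCs. Psmb5 was the lowest beta gene, at 40.1 in Rpl22+/+ and 54.6 in Rpl22-/- HSCs, but some of its reads may be lost to its copy Gm3375.

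**Figure D4:**
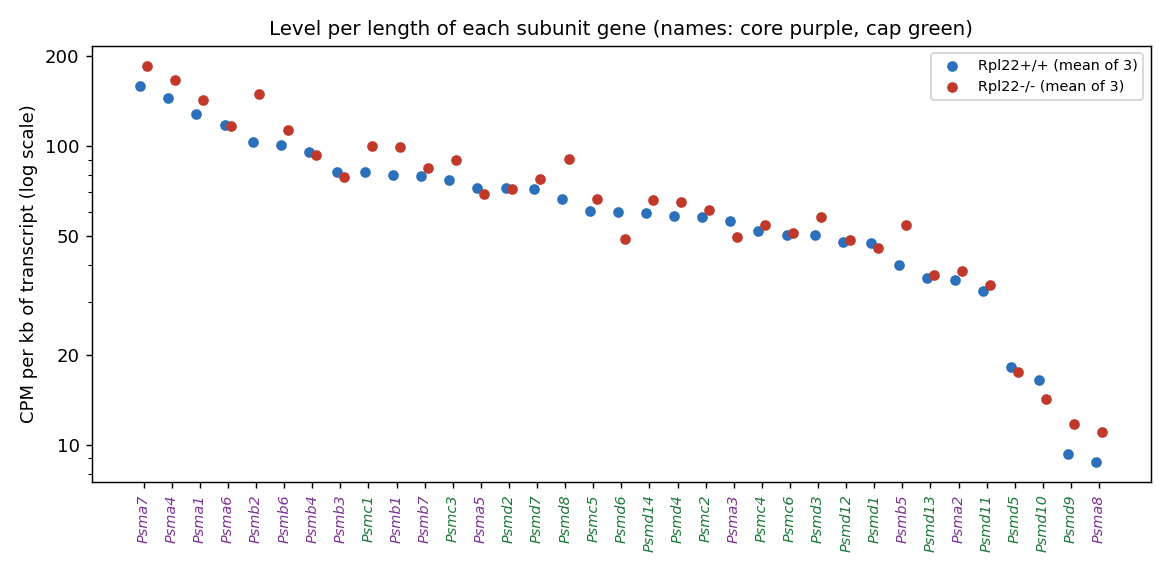
Mean level in CPM per kb of transcript (log scale, n = 3 per genotype) of the 35 tested proteasome genes in Rpl22+/+ and Rpl22-/- HSCs. Psma7 and Psma4 are the highest, and Psma8 and the assembly chaperones Psmd9, Psmd10 and Psmd5 the lowest, in both genotypes.

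The immunoproteasome genes are the nearest comparison, since their products replace the 3 catalytic beta subunits in blood cells. Psmb9, which replaces Psmb6, had 120, 127 and 130 CPM in Rpl22-/- replicates 1, 2 and 3 and 98.9, 90.4 and 98.1 CPM in Rpl22+/+ replicates 1, 2 and 3. It rose by log2 0.40 (adjusted p = 0.0143). Psmb10, which replaces Psmb7, had 93.3, 104 and 104 CPM against 76.7, 79.0 and 71.0 CPM and rose by log2 0.41 (adjusted p = 0.0153). Psmb8, which replaces Psmb5, had 164, 192 and 163 CPM against 145, 134 and 139 CPM (log2 0.31, adjusted p = 0.0535). In all 3 genes the genotypes did not overlap, which was also so in 26.9% of all genes tested. For Psmb9 and Psmb10, Rpl22-/- replicate 2 did not stand apart from replicate 3. Psmb9 and Psmb10 both missed the threshold without Rpl22-/- replicate 3 (adjusted p = 0.069 and 0.0743) or Rpl22+/+ replicate 1 (0.0604 and 0.0673), Psmb9 also without Rpl22+/+ replicate 2 (0.0814) and Psmb10 without Rpl22+/+ replicate 3 (0.0728). With a replicate term and the length and GC trends removed together, Psmb10 stood at log2 0.27 (adjusted p = 0.114). Whether a gene of this kind changed more than its constitutive counterpart was not tested.

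**Figure D5:**
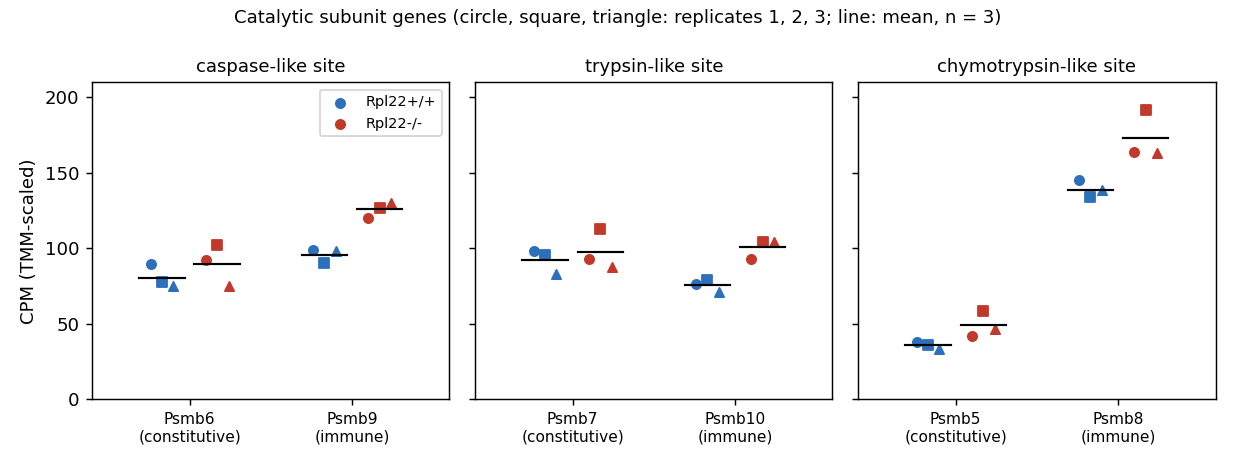
Level in CPM of each constitutive catalytic gene and its immunoproteasome counterpart in every library, with circle, square and triangle for replicates 1, 2 and 3 and a line for the mean (n = 3). In Psmb5 and in the immune genes Psmb8, Psmb9 and Psmb10 the genotypes do not overlap, and in Psmb6 and Psmb7 they do.

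Beyond the subunits, 36 of 37 listed genes of the pathway were tested, the immunoproteasome genes included. Of these, 3 passed, all higher in Rpl22-/- HSCs, or 8.33% beside the 5.57% of all genes, and the median log2 fold change was 0.12. Psmb9 and Psmb10 are among the 3.

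None of the 5 activator and inhibitor genes passed. Psme4, an activator that opens the core without ubiquitin, had 120, 124 and 108 CPM against 140, 150 and 128 CPM (log2 −0.25, adjusted p = 0.111). None of the 5 core assembly chaperones passed, and Pomp, which helps the beta ring mature, stood at log2 0.27 (adjusted p = 0.154). None of the 10 tested genes of other cap and shuttle proteins passed. The cap's deubiquitinase gene Usp14 stood at −0.19 (adjusted p = 0.257).

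Of the 5 genes that control proteasome gene transcription or its main factor, none passed. Nfe2l1, the factor that drives proteasome genes when degradation is limited, had 111, 129 and 137 CPM in Rpl22-/- replicates 1, 2 and 3 and 120, 113 and 106 CPM in Rpl22+/+ replicates 1, 2 and 3 (log2 0.15, adjusted p = 0.35). Its genotypes overlapped through Rpl22-/- replicate 1. Keap1, which marks the related factor Nfe2l2 for degradation, had 89.9, 109 and 104 CPM against 80.8, 74.7 and 85.4 CPM. The libraries did not overlap, with log2 0.33 and an adjusted p of 0.0513, and Keap1 passed in 8 of the 17 alternatives.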

How the data were processed

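RNA-seq of sorted HSCs covered 3 Rpl22-/- and 3 Rpl22+/+ samples. The authors aligned polyA+ TruSeq reads to mm10 with TopHat2 2.1.1, after FastQC, and deposited HTSeq counts per gene, unnormalized. The annotation and strand setting are not given in the sources used here. HTSeq's 5 total lines (58.6% to 60.9% of counts) were left out. From the counts, edgeR 4.0.16 in R 4.3.3 (filterByExpr, minimum count 10, TMM) tested 14004 genes with the quasi-likelihood test and Benjamini-Hochberg adjustment, called below 0.05. Members and lists were chosen with earlier results of these data known.

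Values are printed for members that passed, the 6 smallest p-values of core and of cap and the extreme fold changes of each subgroup. Of the other lists, the smallest p-value of each and every gene that passed are named, with Nfe2l1. Results for some genes within this rule are not reported here. Psmb6, Psmb7, Psmb8 and the remaining members given by fold change alone were added after their values were seen. Alternatives were other scalings, DESeq2 1.42.0, limma-voom (limma 3.58.1), other filters, a replicate term, length and GC trends removed, and each library left out. Levels per kb used the longest principal transcript in GENCODE vM21. Copies were sought with BLAST 2.17.0 (at least 95% identity over 200 bases). Promoters came from RefSeq. The test was first tested on simulated data, whose planted changes were larger than that of any member. It therefore does not speak to changes as small as the members'. Each mean rests on 3 libraries.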

Additional observations from a re-analysis of the deposited data

How the results depend on the processing

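The count of genes passing over all genes was 780, and it was 1422 with no filter on low counts, 509 with the GC trend removed, and 127 (without Rpl22-/- replicate 3) to 1720 (without Rpl22-/- replicate 1) when one library was left out. For the proteasome genes the count of 3 became 6 with no filter, 1 with the GC trend removed, and 0 to 6 with one library left out. Scaling by library size alone moved the share of higher calls over all genes from 58.8% to 43.4%. Direction turned for Psmc6 (−0.025 with library size alone, and −0.062 to 0.097 with one library left out), Psmb3 (−0.143 to 0.075 with one library left out) and Usp14 (0.004 with the replicate block and both trends removed). Same-numbered samples had correlations of −0.10, 0.05 and 0.04 in their deviations, and samples of unlike number −0.17 to 0.13. The labels do not say whether the numbers pair the samples, and so few correlations cannot decide it. With the replicate block, 4 proteasome genes (Psmb1 beside the 3) and 904 genes in all passed. Over the 17 alternatives the core median ran from 0.054 to 0.213, the cap median from 0.009 to 0.125 and their difference from 0.018 to 0.114. The alternatives refit the same libraries, so an unchanged sign is no separate support for a core or cap shift. Psmb11 had 0 reads, so nothing can be said of its change at this depth.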
